A study of Mus musculus with 6 samples.

Results

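The calmodulin-dependent protein kinases (CaM kinases) of the mouse brain were examined on 6 one-colour Affymetrix arrays, 3 from Dap12-knockout and 3 from Dap12-heterozygous mice. Members were all probe sets (groups of short probes that report 1 transcript) whose single annotated gene symbol was Camk2a, Camk2b, Camk2d, Camk2g, Camk4, Camk1, Camkk2, Calm2 or Calm3. This gave 27 probe sets of 7 genes, out of 34945 probe sets with 1 symbol and 45101 in all. Calm2 and Calm3 were not analysed here, so every value concerns the kinases.

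Dap12, the product of Tyrobp, is a signalling adaptor of microglia, and the comparison asked how its absence alters brain transcripts. All mice were 1 month old, and the tissue was described as midbrain with diencephalon and basal ganglia. The knockout arrays came from samples 67, 68 and Ko1 and the heterozygous arrays, from mice that keep 1 working copy, from samples 75, 76 and 81. One label names Dap12 deficiency for all 6 samples, so the genotypes were taken from the sample titles. Strain, sex, the knockout allele and any pooling of animals are not stated, so p-values reflect only the scatter among these 6 samples, which may be technical.

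Calcium that enters a neuron binds calmodulin, and the complex switches on the CaM kinases. CaMKII, assembled from alpha, beta, gamma and delta subunits encoded by Camk2a, Camk2b, Camk2g and Camk2d, sits at synapses and is required for long-lasting changes in synaptic strength. A separate cascade runs from the CaM kinase kinase Camkk2 to Camk1, which acts in the cytoplasm, and to Camk4, a mostly nuclear kinase that phosphorylates the transcription factor CREB. The alpha subunit of CaMKII and Camk4 are known for high levels in forebrain neurons, the striatum included.

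The knockout and heterozygous arrays differed in ways that touch every result. Each array had been scaled to a trimmed mean of about 100, yet median signals were 24.7 to 40.4 on knockout and 20.3 to 21.98 on heterozygous arrays. All 18 hybridisation spikes and all 24 poly-A spikes, which are not mouse transcripts, lay higher in each knockout sample than in any heterozygous one. An effect of genotype and a technical difference between the groups' arrays therefore cannot be told apart. Signals of 3 arrays are listed below in the order 67, 68, Ko1 for the knockouts and 75, 76, 81 for the heterozygotes. Tyrobp read 2.28, 23.7 and 12.9 in the knockouts and 70.7, 68.2 and 77.6 in the heterozygotes. It fell by 1.68 ± 0.33 on the log2 scale (standard error; limma adjusted p = 0.0439).

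Regional make-up also differed between arrays, across both genotypes. The 5 striatal markers measured, among them Penk, Tac1 and Ppp1r1b, summed to 6594 on knockout Ko1 and 5843 on heterozygous 81. On the other 4 arrays that sum was 511 and 1105 (knockout 67 and 68) and 2106 and 1617 (heterozygous 75 and 76). Slc6a3, the dopamine transporter of midbrain neurons, ran the other way. It was at 6.45 in Ko1 and 12.9 in 81, against 395 and 205 in the other two knockouts and 295 and 252 in the other two heterozygotes. Slc6a3 was thus near the lower end on 1 array of each genotype, those with the most striatal signal. The 7 midbrain dopamine neuron markers summed to 370 in Ko1 and 427 in 81, and to 929 to 1468 on the other arrays. Within that list, Nr4a2 was lower on every knockout array (80.3, 106 and 64.1 against 229, 222 and 151). Pitx3, too dim to test, was higher on every one. General neuron markers (7 of 7 measured, 0 called) summed to 20315, 22998 and 16391 in knockouts and 14193, 14254 and 13393 in heterozygotes. Of these 7, 2 were higher and 1 was lower on every knockout array. Over all tested probe sets, 14.9% were higher and 12.5% lower on every knockout array, which also holds as the background for the lists below. Cortex and hippocampus markers (6 of 7 measured, 0 called) summed to 2882, 2277 and 725 against 1107, 1118 and 936. Oligodendrocyte markers (5 of 6 measured, 1 called, Mbp, upwards) summed to 59768, 45005 and 23153 in the knockouts and 16902, 16876 and 16665 in the heterozygotes. Mbp was the largest part of this sum. Of the 5 markers, 3 were higher on every knockout array, while Mog and Mag overlapped between genotypes. Choroid plexus markers (3 of 3 measured, 0 called) summed to 16169, 17788 and 452 against 655, 1569 and 3566. That sum was mostly Ttr (16069, 17643 and 402 against 622, 1539 and 3532). The other 2 of the list, Folr1 and Kl, were higher on every knockout array. Microglial markers (6 of 6, 0 called) summed to 1675 to 2046 against 1258 to 1595. That sum was mostly Csf1r, at means of 1208 and 955, whose groups overlapped. Of the 6, 1 was higher (P2ry12) and 1 lower (Tmem119) on every knockout array. Of the cerebellar markers, 4 of 7 were too dim to test. The part of this make-up in the kinase values was examined only by refitting with the striatal level as a covariate or without sets of arrays, and that of the other lists was not tested. In bulk tissue, fewer cells of a type and less RNA per cell cannot be told apart.

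Changes below are differences of log2(signal + 16), knockout minus heterozygous, with standard errors from limma; the 16 added makes changes of dim probe sets look smaller. The brighter part of all probe sets by mean log2 level, 22518 in number, was tested, and p-values were adjusted over all of them. Of the 27 kinase probe sets, 21 were tested and 6 were too dim. Of the 21, 3 had a heterozygous mean level below the filter and were tested only through the knockouts. A single kinase probe set passed an adjusted p of 0.05, upwards, and 0 passed downwards (limma), while 10 of 21 had an unadjusted p under 0.05. Over all tested probe sets 1.98% passed, 1.24% upwards and 0.733% downwards, and 20.9% had an unadjusted p under 0.05. Changes were below 0 for 10 of the 21 and for 49.9% of all tested. The median change was 0.058 for the kinase probe sets and 0.0017 for all tested probe sets. Upward calls were 62.9% of the 445 over all genes, and 17.2% of 581 when arrays were centred on their medians, which shifted the overall median change to -0.40. Groups did not overlap for 7 of the 21, with 4 higher and 3 lower on knockout arrays, against 14.9% higher and 12.5% lower over all tested probe sets.

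**Figure D1:**
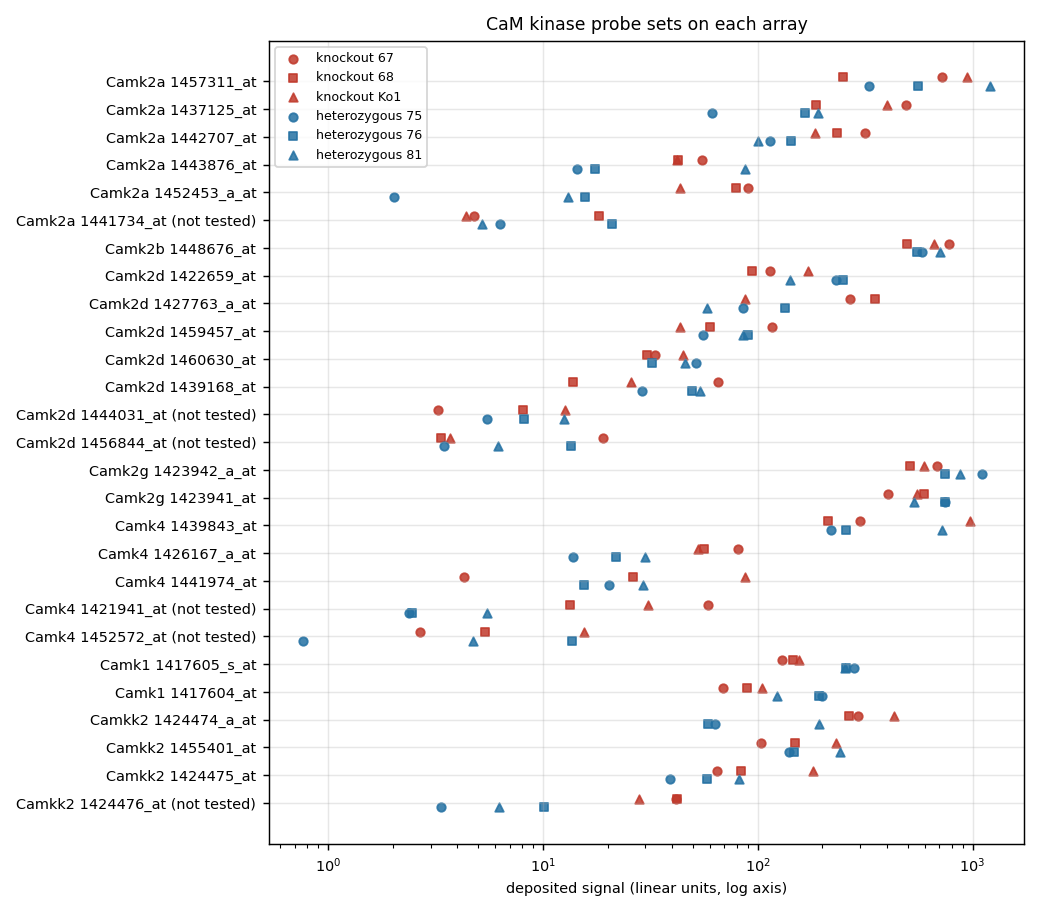
Deposited signal of each of the 27 CaM kinase probe sets (log axis) on the 3 knockout arrays (red) and the 3 heterozygous arrays (blue), ordered within each gene by mean signal. The red and blue points of both Camk1 probe sets separate with red lower, and those of Camk2a 1452453_a_at and Camkk2 1424474_a_at separate with red higher.

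Camk2a, the alpha subunit of CaMKII, was measured by 6 probe sets that did not change alike. The probe set that rose was the dimmest of the 5 tested, 1452453_a_at. It read 90.1, 78.9 and 43.6 in the knockouts and 2.03, 15.6 and 13.1 in the heterozygotes. Every knockout array thus lay above every heterozygous one, and the heterozygous signals were close to the lower end of the array. The means were 70.9 ± 24.3 and 10.3 ± 7.23 (SD, n = 3), and the log2 change was 1.73 ± 0.35 (limma adjusted p = 0.0475). The heterozygous signals lay below the array medians, so no linear fold is given, and the change depended on the scale, from 0.85 with 64 added to 3.18 with low signals raised to 1. Its heterozygous mean log2 level, 4.67, was below the filter of 5.33 and its knockout mean, 6.40, above it. It was therefore tested only through the group in which it was high, and its call is no independent support for a difference.

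The brightest Camk2a probe set, 1457311_at, showed no such separation. Its signals were 718, 248 and 938 in the knockouts and 328, 557 and 1206 in the heterozygotes. High values lay on knockout Ko1 and heterozygous 81, the arrays rich in striatal markers, and on knockout 67. The change was -0.13 ± 0.55 (limma adjusted p = 0.92), with a 95% interval from -1.38 to 1.13, so a doubling in either direction lies within it. It was 0.14 with the striatal marker level as a covariate.

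Of the other Camk2a probe sets, 1442707_at read 316, 235 and 184 in the knockouts and 114, 143 and 101 in the heterozygotes. The groups did not overlap, and the change of 0.93 ± 0.24 did not pass (limma adjusted p = 0.0865). Probe set 1437125_at gave 491, 187 and 400 against 61.1, 166 and 190. Knockout 68 was just below heterozygous 81 there, and the change was 1.30 ± 0.44 (limma adjusted p = 0.149). Probe set 1443876_at overlapped, with 55.1, 42.7 and 42.2 against 14.4, 17.5 and 86.8, and a change of 0.41 ± 0.45 (limma adjusted p = 0.646). The sixth, 1441734_at, was too dim to test, at 4.37 to 18.2 on knockout and 5.22 to 21.0 on heterozygous arrays.

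Leaving out any one of samples 67, 68, 75, 76 or 81 ended the call of Camk2a 1452453_a_at. Adjusted p ran from 0.124 to 0.213 and changes from 1.47 to 1.88. In those fits only 0 to 29 of all 22518 tested probe sets passed, so nearly every call ended. Without sample Ko1 the change was 1.98 (adjusted p = 0.00589), in a fit where 23.2% of all probe sets passed. The call was also lost with quantile normalization (adjusted p = 0.0822) and with arrays centred on their medians (1.32, adjusted p = 0.0532). The same held without a level filter (adjusted p = 0.0984) and without a trend (adjusted p = 0.0521). It held too when low signals were raised to 1 (3.18, adjusted p = 0.0896). Without knockout Ko1 and heterozygous 81 together the change was 2.07 (adjusted p = 0.00929), where 20.8% of all probe sets passed. With the striatal covariate it was 1.62 (adjusted p = 0.0347), where 5.49% of all passed. Over the 16 alternatives in which it was tested the adjusted p ran from 0.00433 to 0.213. It was too dim to test with a filter removing 75% and without knockout 67 and 68 together.

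Camk2b, the beta subunit, which anchors the holoenzyme to actin, had 1 probe set. Its signals were 780, 496 and 661 in the knockouts and 581, 551 and 707 in the heterozygotes. The groups overlapped, and all 6 arrays lay within a narrow range. The change was 0.06 ± 0.21 (limma adjusted p = 0.905; 95% interval -0.43 to 0.55), and it was -0.34 with arrays centred on their medians, where all probe sets had a median of -0.40.

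Camk2g, the gamma subunit, had 2 bright probe sets, both with lower means on knockout arrays. Probe set 1423942_a_at read 683, 513 and 597 in the knockouts and 1101, 742 and 877 in the heterozygotes. All 3 knockout values were below all 3 heterozygous values, with means of 598 ± 84.6 and 907 ± 181 (SD, n = 3). The change of -0.58 ± 0.21 did not pass (limma adjusted p = 0.159). The second, 1423941_at, read 403, 591 and 548 against 747, 742 and 536, so that heterozygous 81 lay among the knockout values, and it changed by -0.38 ± 0.22 (limma adjusted p = 0.355).

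Camk2d, the delta subunit, was covered by 7 probe sets, 5 of them tested. The 2 brightest went in opposite directions. The brightest, 1422659_at, read 114, 93.8 and 171 in the knockouts and 232, 248 and 142 in the heterozygotes. Knockout Ko1 stood above heterozygous 81, and the change was -0.65 ± 0.28 (limma adjusted p = 0.236). By contrast, 1427763_a_at read 268, 350 and 86.9 on the knockout arrays and 85.2, 133 and 58.1 on the heterozygous arrays. Only knockout 67 and 68 were high, and the change was 1.09 ± 0.47 (limma adjusted p = 0.23). It was 1.64 (adjusted p = 0.00784) without knockout Ko1, in a fit where 23.2% of all probe sets passed. Without knockout 67 and 68 together it was -0.012. The other 3 tested, at mean signals of 34.8 to 77.0 in either group, changed by -0.12 ± 0.33, -0.18 ± 0.26 and -0.34 ± 0.39. The 2 untested sets stayed between 3.24 and 19.1 on all arrays.

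**Figure D2:**
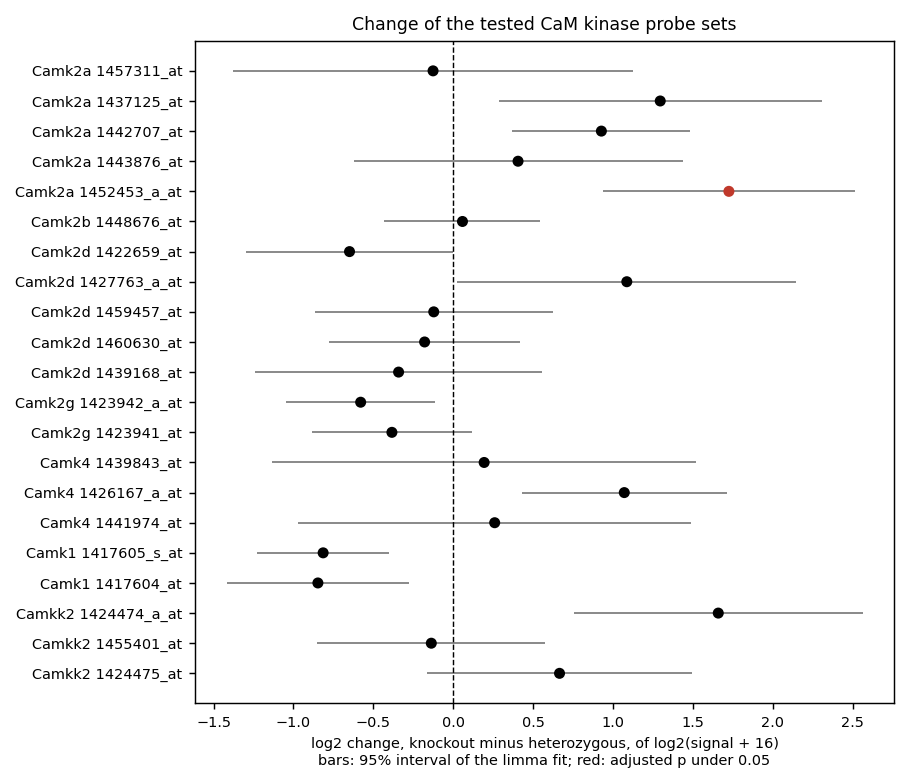
Log2 change (knockout minus heterozygous) of the 21 tested CaM kinase probe sets, with 95% intervals of the limma fit as bars. Camk2a 1452453_a_at at 1.73 (red) passed an adjusted p of 0.05, and the 2 Camk1 probe sets sat close together at -0.81 and -0.85.

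In the cascade, the brightest Camkk2 probe set and both probe sets of its substrate Camk1 stood on opposite sides of 0, without passing the threshold. Camkk2 had no single direction, as its probe set 1455401_at was at -0.14, on the side of Camk1. The promoters of both are printed because these genes had the clearest separation of groups outside Camk2a, with opposite directions on 1 probe set of Camkk2 and both of Camk1. RefSeq sequence (GRCm38.p6) covered promoters of 5 of the 9 listed genes, from 250 bases before to 50 after the start. Both windows lie on the minus strand, Camk1 at chr6:113343873-113344172 and Camkk2 at chr5:122779361-122779660. Capitals mark matches, on either strand, to TGACG (the core of a CREB site), CCAAT and GGGCGG (a GC box).
Camk1: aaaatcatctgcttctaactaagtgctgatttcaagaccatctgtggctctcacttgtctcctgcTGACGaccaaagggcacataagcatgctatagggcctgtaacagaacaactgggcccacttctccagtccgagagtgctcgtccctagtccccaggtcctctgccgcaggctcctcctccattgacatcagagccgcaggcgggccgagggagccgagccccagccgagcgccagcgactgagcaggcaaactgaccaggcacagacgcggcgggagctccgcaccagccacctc
Camkk2: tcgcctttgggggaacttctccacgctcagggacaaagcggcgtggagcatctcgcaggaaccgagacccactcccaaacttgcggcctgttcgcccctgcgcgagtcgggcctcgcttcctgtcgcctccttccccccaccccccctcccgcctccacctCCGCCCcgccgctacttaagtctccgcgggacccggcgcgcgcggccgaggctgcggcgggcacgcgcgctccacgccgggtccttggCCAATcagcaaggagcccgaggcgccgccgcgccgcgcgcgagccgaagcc
The Camk1 window held 1 TGACG and neither other motif, and the Camkk2 window held 1 CCAAT, 1 GC box and 0 TGACG. Over all 32851 promoter windows of the table, 20.8% held TGACG, 37.4% CCAAT and 35.7% the GC box. Guanine and cytosine made up 60% of the Camk1 and 73.3% of the Camkk2 window, against a median of 52.7%. A match is only a run of letters and does not show that a factor binds.

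Camk1, a kinase of axon growth and dendrite development, was lower on every knockout array on both of its probe sets, without passing the threshold. Probe set 1417605_s_at read 130, 146 and 155 in the knockouts and 280, 257 and 255 in the heterozygotes. The spread within each group was small, with means of 143 ± 12.7 and 264 ± 13.7 (SD, n = 3), a heterozygous level 1.84 times that of the knockout. The change was -0.81 ± 0.18 (limma adjusted p = 0.0599). Probe set 1417604_at read 68.6, 89.3 and 105 against 199, 194 and 123 and changed by -0.85 ± 0.25 (limma adjusted p = 0.111). On the second set the highest knockout, Ko1, and the lowest heterozygote, 81, were at 105 and 123. Without knockout Ko1 both probe sets passed, at -0.87 (adjusted p = 0.0096) and -0.97 (adjusted p = 0.0271), in a fit where 23.2% of all probe sets passed. The first also passed with arrays centred on their medians (-1.22, adjusted p = 0.0454), where 2.58% of all probe sets passed. With the striatal covariate it passed too (-0.79, adjusted p = 0.0394), where 5.49% of all did. Over all alternatives its adjusted p ran from 0.00744 to 0.275 and that of the second from 0.00982 to 0.376, with every change below 0.

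Camkk2, the kinase that phosphorylates Camk1 and Camk4, had 4 probe sets. The brightest, 1424474_a_at, read 292, 265 and 433 in the knockouts and 63.3, 58.6 and 192 in the heterozygotes. All knockout values were above all heterozygous ones, and within each genotype the array rich in striatal markers was the highest. Means were 330 ± 90.1 and 105 ± 75.9 (SD, n = 3), a linear ratio of 3.15, and the change was 1.66 ± 0.40 (limma adjusted p = 0.0705). With the striatal level as a covariate it was 1.89 (adjusted p = 0.0142), in a fit where 5.49% of all probe sets passed. Without knockout Ko1 and heterozygous 81 together it was 1.93 (adjusted p = 0.0015), where 20.8% of all passed. Over all alternatives the adjusted p ran from 0.0015 to 0.262.

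The other Camkk2 probe sets differed from it. For 1455401_at the signals were 104, 150 and 231 in the knockouts and 140, 147 and 242 in the heterozygotes, with a change of -0.14 ± 0.31 (limma adjusted p = 0.838). Here the highest arrays were knockout Ko1 and heterozygous 81, and the genotypes overlapped. Probe set 1424475_at, at 64.8, 83.7 and 181 against 39.0, 57.9 and 81.6, changed by 0.67 ± 0.37 (limma adjusted p = 0.337). The dimmest, 1424476_at, was not tested and read 41.5, 42.2 and 27.9 on knockout arrays against 3.36, 10.1 and 6.24 on heterozygous arrays. Its groups did not overlap, as for 18.8% of all probe sets too dim to test (2.32% had the heterozygotes higher).

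Camk4, the nuclear kinase of the cascade, had 5 probe sets, 3 of them tested. The brightest, 1439843_at, read 301, 212 and 970 in the knockouts and 220, 258 and 719 in the heterozygotes. Its highest arrays were knockout Ko1 and heterozygous 81, those rich in striatal markers, and the genotypes overlapped. The change was 0.19 ± 0.58 (limma adjusted p = 0.882), with a 95% interval from -1.13 to 1.52. It was 0.63 with the striatal marker level as a covariate (limma adjusted p = 0.207). Probe set 1426167_a_at separated the genotypes instead, with 81.2, 56.2 and 52.9 against 13.9, 21.9 and 30.0, and a change of 1.07 ± 0.28 (limma adjusted p = 0.0852). It too passed the filter only through the knockouts, with mean log2 levels of 6.29 and 5.22. The third, 1441974_at, read 4.30, 26.2 and 87.6 against 20.3, 15.6 and 29.1, with a change of 0.26 ± 0.54 (limma adjusted p = 0.82) and a heterozygous mean log2 level of 5.22 below the filter. Of the 2 that were too dim, 1421941_at read 58.7, 13.4 and 30.8 against 2.37, 2.47 and 5.47, so the groups did not overlap, and 1452572_at stayed between 0.77 and 15.5 on all arrays.

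**Figure D3:**
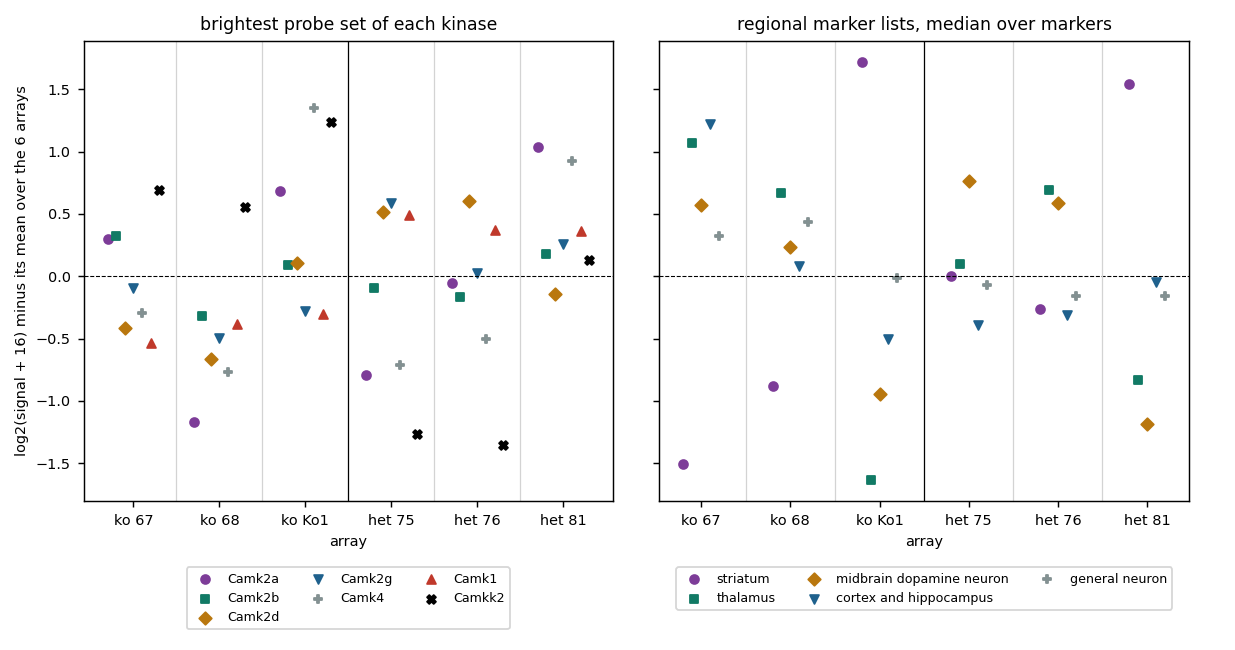
Left, log2(signal + 16) of the brightest probe set of each kinase on each array, minus its mean over the 6 arrays; right, the median of the same quantity over tested markers of 5 lists. Striatal markers were highest on knockout Ko1 (1.72) and heterozygous 81 (1.54), and so were the brightest probe sets of Camk2a and Camk4.

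On 4 of the 21 tested kinase probe sets (19%), knockout Ko1 and heterozygous 81 were the 2 highest arrays, against 8.2% of all tested probe sets. These were the brightest probe set of Camk2a, 2 of Camk4 and 1 of Camkk2. The probe sets of other genes most like Camk2a 1457311_at over the 6 arrays were those of Celf2 (Pearson r = 0.993), Psd3 (0.986), Abi2 (0.976), Calb1 (0.973) and Gp1bb (0.972). Among 19917 candidates, 97 (0.487%) had an r above 0.9, and these values describe 6 arrays that differ in regional make-up.

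Probe sets of the same gene were then compared within each array. The log2 difference between a probe set and the brightest of its gene was computed on every array for 14 pairs. Groups did not overlap for 4 pairs, each with the smallest two-sided exact permutation p that 3 arrays against 3 allow (p = 0.1; 0.35 after Benjamini-Hochberg adjustment over the 14). Such a share was not computed for pairs of all genes. For single probe sets, the groups did not overlap for 27.4% of all tested. Relative to 1457311_at, Camk2a 1452453_a_at stood 1.85 higher on knockout than on heterozygous arrays and 1437125_at 1.42 higher. With 64 added, the difference for 1452453_a_at was 0.96 (exact permutation p = 0.4). That probe set was tested only through the knockouts, so its separation is no independent support for a difference. Relative to 1424474_a_at, Camkk2 1455401_at stood at -0.99 ± 0.32 on knockout and 0.80 ± 0.43 on heterozygous arrays (SD, n = 3), a difference of -1.80, and 1424475_at differed by -0.99. The 2 Camk1 probe sets, in contrast, differed by -0.033 (exact permutation p = 0.9), and the 2 Camk2g probe sets by 0.20 (exact permutation p = 0.7).

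**Figure D4:**
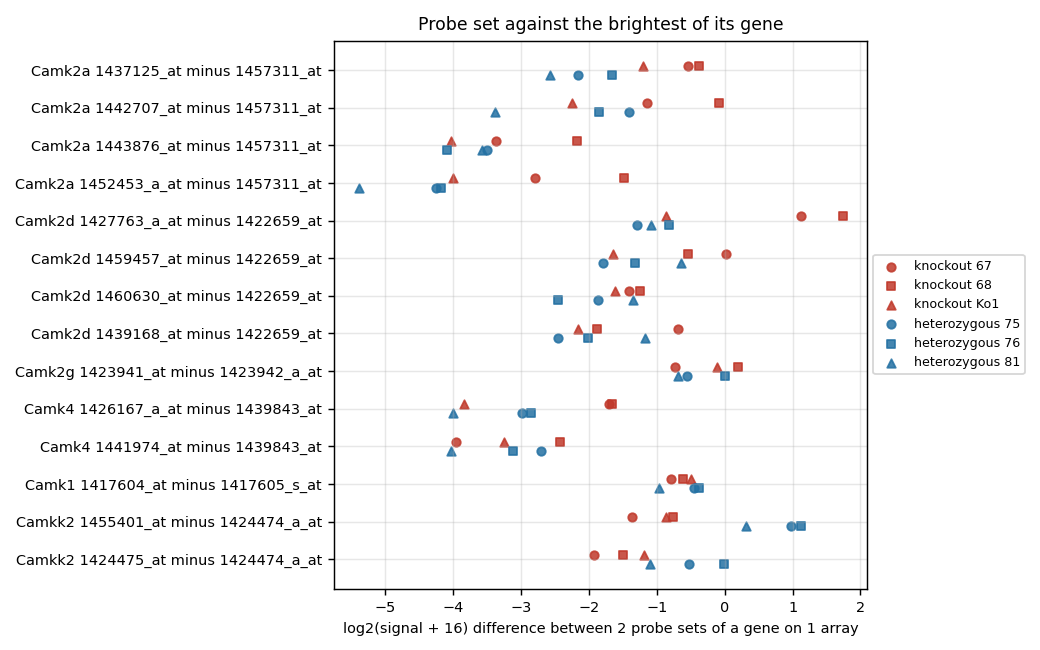
For 14 pairs of probe sets of 1 gene, the log2(signal + 16) difference on each array (knockout red, heterozygous blue). Red and blue do not overlap for Camk2a 1452453_a_at and 1437125_at and for both Camkk2 pairs.

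Probe sets whose names end in _a_at, which match several transcripts of 1 gene, held most of the larger increases, a pattern noticed after the values were seen. Of the 5 such kinase probe sets tested, 4 changed by more than 1 on the log2 scale, one each of Camk2a, Camk2d, Camk4 and Camkk2, and the one of Camk2g changed by -0.58. Those of Camk2a and Camk4 were tested only through the knockouts, so this count describes the probe sets and supports nothing. Of the other 16, 1 changed by more than 1 (6.25%). Over all tested probe sets the shares were 7.36% of 3192 with this ending and 4.05% of 19326 without it.

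CaMKII subunits were compared with each other through the log2 difference of their brightest probe sets on each array. In 6 pairs, the groups did not overlap for 1, and such a share was not computed for pairs of other genes. Camk2b relative to Camk2g was at 0.095 ± 0.13 on knockout and -0.54 ± 0.32 on heterozygous arrays (SD, n = 3), a difference of 0.64 (exact permutation p = 0.1, the smallest possible; 0.6 adjusted over the 6). Camk2a relative to Camk2b, the pair that dominates the neuronal holoenzyme, differed by -0.18 (exact permutation p = 0.7). The array values of that pair ran from -0.95 to 0.49 on knockout and from -0.79 to 0.76 on heterozygous arrays, highest on knockout Ko1 and heterozygous 81.

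The other genes of calmodulin signalling, in 6 lists, gave 81 tested probe sets of 43 genes, of which 0 rose and 1 fell (limma), with a median change of -0.081. Over all tested probe sets 1.98% passed. The one that fell was of Hdac5, a histone deacetylase that CaM kinases phosphorylate and so send out of the nucleus. It read 220, 330 and 314 in the knockouts and 645, 584 and 647 in the heterozygotes, with no overlap. The change was -1.09 ± 0.20 (limma adjusted p = 0.0391). Hdac5 stood among 17 tested probe sets of kinase substrates and transcriptional targets, whose median was -0.26. Next to it was Syn1, a vesicle protein phosphorylated by CaM kinases, at 541 ± 186 against 1123 ± 44.2 (SD, n = 3; change -1.08 ± 0.24, limma adjusted p = 0.0617). Without knockout Ko1, 27 probe sets of these lists passed (limma), when 23.2% of all probe sets did. Without any other single array 0 of these lists passed (limma), when 0 to 29 of all 22518 probe sets did.

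Among 21 probe sets of other CaM-dependent kinases, 0 passed in either direction (limma) and the median was -0.022. Camk1d, a paralogue of Camk1, was higher on all knockout arrays on both tested probe sets, with changes of 0.73 ± 0.24 (limma adjusted p = 0.141) and 0.90 ± 0.32 (limma adjusted p = 0.159). Another Camk1d probe set, too dim to test, overlapped between groups, at 16.7 ± 13.1 against 24.7 ± 13.6 (SD, n = 3). Camk1g, another paralogue, was at 193 ± 48.6 against 214 ± 10.9 and the pseudokinase Camkv at 465 ± 173 against 538 ± 218 (SD, n = 3). Pnck, also of the Camk1 family, was at 273 ± 153 against 611 ± 108 (change -1.23 ± 0.35, limma adjusted p = 0.104), and a probe set of Dclk1, a doublecortin-like kinase, was at 0.88 ± 0.24 (limma adjusted p = 0.0943), while its brightest was at -0.022 ± 0.23 (limma adjusted p = 0.968).

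Proteins that restrain the kinases or bind calmodulin also gave 0 calls among 7 probe sets (limma), with a median of -0.43. Camk2n2 was at 853 ± 154 against 1305 ± 201 (SD, n = 3), with no overlap and a change of -0.61 ± 0.20 (limma adjusted p = 0.139). Camk2n2 and Camk2n1 both inhibit CaMKII. The brighter probe set of Camk2n1 was at 0.48 ± 0.23 (limma adjusted p = 0.278) and the dimmer at -0.43 ± 0.52 (limma adjusted p = 0.676). Nrgn, which holds calmodulin at forebrain synapses, read 394, 116.8 and 345 in the knockouts and 375, 309 and 853 in the heterozygotes (change -0.83 ± 0.49, limma adjusted p = 0.369). Pcp4, another calmodulin-binding protein, changed by 0.43 ± 0.19 (limma adjusted p = 0.239).

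Calcineurin, the calmodulin-dependent phosphatase that opposes the kinases, and its regulators gave 0 calls among 15 probe sets (limma; median 0.048). Rcan3, a calcineurin regulator, changed by -0.82 ± 0.21 (limma adjusted p = 0.0808). Rcan1 had 1 probe set at 1.20 ± 0.34 (limma adjusted p = 0.0988) and a brighter one at -0.19 ± 0.26 (limma adjusted p = 0.723). Of the calmodulin-regulated enzymes and pumps, 0 of 20 probe sets passed (limma; median 0.11). The smallest p there belonged to Atp2b2, a calcium pump of the plasma membrane (1.11 ± 0.36, limma adjusted p = 0.131), and Adcy1, a calmodulin-activated adenylyl cyclase (1.25 ± 0.40, limma adjusted p = 0.134). Both values came from dimmer probe sets of their genes. The brightest of Atp2b2 was at 0.097 ± 0.21 (limma adjusted p = 0.825) and that of Adcy1 at 0.19 ± 0.34 (limma adjusted p = 0.782). Calml4 was the only tested gene of the calmodulin list, at -0.11 ± 0.36 (limma adjusted p = 0.894). Camkk1 was not analysed here.

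**Figure D5:**
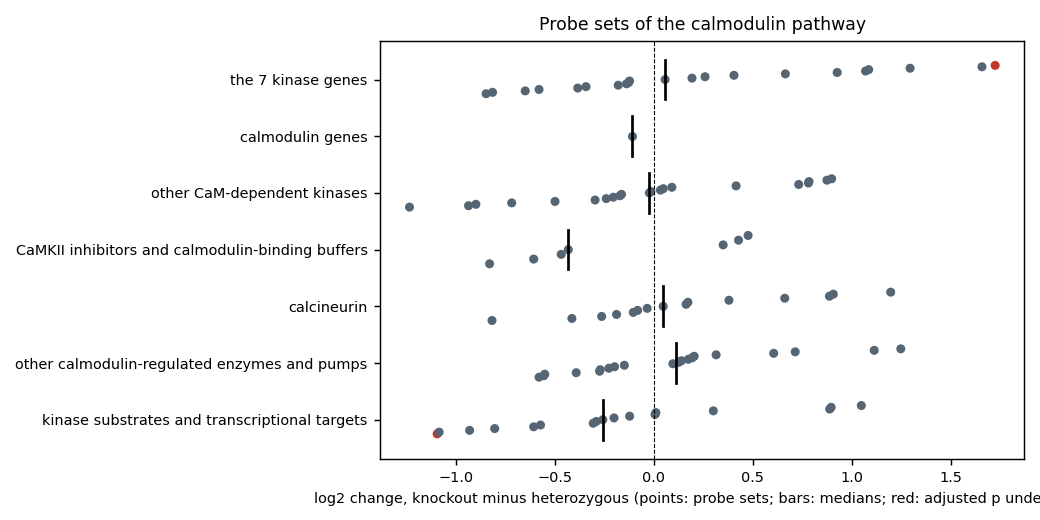
Log2 change of each tested probe set of the 7 kinase genes and of the 6 lists of calmodulin signalling genes, with the median of each list as a bar. Camk2a 1452453_a_at (1.73) and Hdac5 (-1.09) are the 2 points in red, which passed an adjusted p of 0.05.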

How the data were processed

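Total RNA was extracted with Trizol and RNeasy columns and labelled by the Affymetrix one-cycle method, per the labels' protocols. The authors deposited linear signal intensities made with GCOS, the Affymetrix scanner software, per the submitters' processing notes. Its version and summary algorithm are not stated. The deposited whole-array scaling (a 2% trimmed mean of about 100) was kept. Symbols came from the platform annotation, and only probe sets with 1 symbol were named.

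The 64 control probe sets were left out. Intensities were transformed as log2(signal + 16), and the 22518 probe sets above the median of mean log2 level were tested with limma 3.58.1 in R 4.3.3 (lmFit, eBayes with trend, two-sided, Benjamini-Hochberg, threshold 0.05). The procedure was run on simulated data with independent noise at the heterozygous spread in both groups. Those data held no spike or regional differences between arrays, so the run does not show how the fit handles them. Contrasts used exact permutation of arrays, whose smallest p with 3 against 3 is 0.1. Precision is set by how few arrays there are. The members, lists, tests and alternatives were chosen with earlier results of these data known. Every member probe set was named; of each pathway list, those that passed, the 2 genes with the smallest p, and Camkk1, Camk1d, Camk1g, Camkv, Camk2n1, Camk2n2, Nrgn and Pcp4. Contrasts and patterns that needed Calm2 or Calm3 were not run. Region and cell make-up were read from lists of marker genes. Alternatives changed the normalization, the added constant, the filter, the variance model, array weights and the arrays included. The 3 fits on regional make-up were added after the data were seen.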

Additional observations from a re-analysis of the deposited data

Results flagged for a closer look

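The spiked controls, which the comparison itself did not use, were higher on knockout arrays. All 18 hybridisation spike probe sets had their 3 knockout values above their 3 heterozygous values, with a median log2 difference of 2.31, and so did all 24 poly-A spike probe sets, with a median of 1.41. Their part in the kinase values was not tested.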

How the results depend on the processing

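Of 18 alternatives, 15 were planned and 3 added after the data were seen. Of the 21 tested kinase probe sets, 13 kept their direction wherever they were tested, 8 of them in all 18 alternatives and 5 in fewer because they were too dim under some. Main counts were 1 kinase, 1 pathway and 445 probe sets in all. They became 0, 0 and 126 with quantile normalization, 0, 0 and 180 without a trend, 0, 1 and 124 without a level filter, and 0, 1 and 315 with a floor of 1. Array weights gave 9, 26 and 4786 (21.3% of all). Centring on medians gave 1, 3 and 581, and adding 64 gave 1, 2 and 433. Leaving out 1 array gave 0 to 8 kinase, 0 to 27 pathway and 0 to 5226 probe sets in all (limma). The highest counts came without knockout Ko1, and 29 in all passed without heterozygous 76. The counts of 0 in all stood beside 2896 to 3887 unadjusted p under 0.05. Of the added fits, leaving out knockout Ko1 and heterozygous 81 gave 8, 25 and 4685, and the striatal covariate gave 4, 6 and 1237. Leaving out knockout 67 and 68 gave 0, 3 and 619, with the lone knockout assumed to vary like the other arrays.

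Signs turned as follows. The largest main change among these was that of Camk2d 1427763_a_at, 1.09. Camk4 1441974_at was -0.053 with quantile normalization. Centring on medians gave -0.34 for Camk2b, -0.21 for Camk4 1439843_at and -0.14 for Camk4 1441974_at, and array weights gave -0.022 for Camk2b. Without knockout Ko1 and heterozygous 81, Camk2d 1459457_at was 0.20. Without knockout 67 and 68, Camk2a 1457311_at was 0.62, Camk2d 1427763_a_at -0.012, Camk2d 1460630_at 0.058 and Camkk2 1455401_at 0.40. With the striatal covariate, Camk2a 1457311_at was 0.14 and Camkk2 1455401_at 0.071. Leaving out 1 array gave -0.55 to 0.43 for Camk2a 1457311_at, -0.088 to 0.23 for Camk2b, -0.45 to 0.13 for Camk2d 1459457_at, -0.43 to 0.70 for Camk4 1439843_at and -0.41 to 0.11 for Camkk2 1455401_at. Among contrasts, Camk1 1417604_at minus 1417605_s_at was 0.034 and Camk2d minus Camk2g 0.037 with 64 added, and Camk4 1441974_at minus 1439843_at was -0.17 with a floor of 1. The causes were not tested. No paired analysis was possible because the groups share no replicate number. With 3 arrays a group, and spikes that separate the groups, small changes cannot be resolved.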
